A study of Mus musculus with 24 samples.

Results

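The peaks described here are sites of m6A enrichment next to stop codons in mRNA of CD11b+ myeloid cells sorted from tumours that the colon carcinoma line MC38 formed in C57BL/6J mice. A peak was a member when it was called in all 3 WT Ctrl m6A IP libraries on the same strand, sharing at least 1 base, and when its summit lay within 200 genomic bases of an annotated stop codon of a protein-coding transcript on that strand. Of 12157 peaks shared by the 3 WT Ctrl libraries, 2489 (20.5%) met this rule, and they belonged to 2393 genes. Altogether 2300 genes held 1 such peak and 93 held more, with at most 3 in a gene, and 14 peaks lay near stop codons of more than 1 gene. The rule used the WT Ctrl peak calls, so the values of these peaks in WT Ctrl are given as a description and without a test.

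The series holds 12 Input libraries (fragmented polyadenylated RNA) and 12 m6A IP libraries (the fragments bound by an m6A antibody), with 3 replicates in each of 4 groups. WT mice carried loxP-flanked Ythdf2 alleles (Ythdf2 fl/fl) without Cre, and cKO mice carried the same alleles with Lyz2-Cre, a Cre knock-in at the myeloid gene Lyz2, so both genotypes shared the floxed alleles and only cKO carried the Cre. Tumours were left untreated (Ctrl) or received 1 dose of 20 Gy (IR) 3 days before the cells were taken. A replicate pooled cells of several mice. The methods of the study speak of technical replicates in one place and of biological ones in another, so p-values here measure the spread between these libraries, which may be technical. In bulk RNA such as this, fewer cells of a type and less RNA per cell cannot be told apart.

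m6A is a methyl mark on adenosines inside mRNA. A methyltransferase complex built around METTL3 and METTL14, with WTAP, VIRMA and RBM15 or RBM15B as partners, writes it in a short sequence context with GAC at its core, FTO and ALKBH5 can remove it, and reader proteins bind it. The mark is best known for its accumulation around stop codons and in the adjoining 3′ UTR. The reader YTHDF2 recruits the CCR4-NOT deadenylase complex to marked transcripts and so promotes their decay.

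The sites below are chosen examples of sequence at these peaks. Each line gives the consensus motif nearest to a summit and its flanks, for peaks among the strongest (Id1, Cenpm, Ocstamp, Hs3st3b1 and Mgl2), for proliferation genes (Top2a, Plk1 and Cenpf), for genes whose Input counts moved with irradiation or genotype (Arg1, Sesn2, Batf, Ffar2 and G0s2), and for peaks that were absent from whole groups (Thy1, Bbs12 and Ythdf2). The sequences were read from the RefSeq GRCm38.p6 genome on the transcript strand, 5′ to 3′, and the capitals mark the motif. The motif GGACT nearest the summit within 100 bases was taken, or, where that was absent, the nearest of GGACA, then GGACC, then GAACT and then AGACT. A match is a description of the sequence and not a mapped methylation site. Most of the examples hold GGACT, which is not typical of the set. Over all 2489 peaks, 654 (26.3%) had a GGACT within 100 bases of the summit. Cish, Chn2 and Car4, also among the strongest peaks, had none there.
Id1 (3′ UTR, chr2:152737029-152737049, + strand, motif centre 26 bases after the stop codon): gaccagatGGACTccagccct
Cenpm (3′ UTR, chr15:82234254-82234274, - strand, motif centre 49 bases after the stop codon): tcactgcaGGACTgagctcca
Ocstamp (coding sequence, chr2:165395898-165395918, - strand, motif centre 60 bases before the stop codon): gggaactcGGACTctggagtc
Hs3st3b1 (coding sequence, chr11:63889121-63889141, - strand, motif centre 2 bases before the stop codon): ttcggctgGGACTgagtctcc
Mgl2 (coding sequence, chr11:70136970-70136990, + strand, motif centre 131 bases before the stop codon): ggaggcgaGGACTgtgcccac
Top2a (coding sequence, chr11:98993903-98993923, - strand, motif centre 107 bases before the stop codon): gaggaacaGGACTtccctgtg
Plk1 (coding sequence, chr7:122169441-122169461, + strand, motif centre 137 bases before the stop codon): gagaagagGGACTtccaaacg
Cenpf (3′ UTR, chr1:189642532-189642552, - strand, motif centre 57 bases after the stop codon): gcctgtggGGACTtgtcttga
Arg1 (coding sequence, chr10:24915756-24915776, - strand, motif centre 154 bases before the stop codon): tcctttcaGGACTagatatca
Sesn2 (3′ UTR, chr4:132493641-132493661, - strand, motif centre 65 bases after the stop codon): ctgtgcaaGGACTtctgtgtc
Batf (3′ UTR, chr12:85708891-85708911, + strand, motif centre 149 bases after the stop codon): ggtcagagGGACTtaaggcct
Ffar2 (3′ UTR, chr7:30819042-30819062, - strand, motif centre 69 bases after the stop codon): agctcctgAGACTtggtaaaa
G0s2 (3′ UTR, chr1:193272328-193272348, - strand, motif centre 125 bases after the stop codon): ggggtctgGGACTgatttgct
Thy1 (coding sequence, chr9:44046676-44046696, + strand, motif centre 10 bases before the stop codon): cttcgcctGGACTgccgccat
Bbs12 (coding sequence, chr3:37321122-37321142, + strand, motif centre 52 bases before the stop codon): taattactGGACTtgtacaca
Ythdf2 (3′ UTR, chr4:132186896-132186916, - strand, motif centre 18 bases after the stop codon): ttctgcatAGACTgcagcaac

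Gene counts summed to 65180075 to 86421888 per library. CPM of single genes are counts scaled to library totals that were adjusted by edgeR's TMM method, separately for the Input fit and the fit of all libraries that gave the IP values. Sums of markers use library totals without that adjustment. Lyz2, which the Cre knock-in disrupts, had 20056 to 21462 CPM in the WT Inputs and 296 to 414 in the cKO Inputs. In the IP libraries Lyz2 was at 15641 to 16500 CPM in WT Ctrl and 86.7 to 91.8 in cKO Ctrl, but at 88.5 to 91.1 in the libraries labelled WT IR and 19517 to 19808 in those labelled cKO IR. The IR IP libraries therefore go against their genotype labels by this gene, and they are called by label throughout. Ythdf2, the targeted gene, had 95.6, 96.8 and 98.1 CPM in WT Ctrl Inputs, 174, 185 and 175 in cKO Ctrl, 105, 104 and 107 in WT IR and 231, 219.9 and 217 in cKO IR. Its gene-level count was thus higher in cKO, and such a count also holds reads from outside the floxed part, so it does not check the deletion. All 8 myeloid markers with counts were found in every group. The 6 erythroid markers summed to 27.4 to 29.9 CPM in WT IR Inputs and to at most 0.0668 in the other Inputs (among them Hba-a2 at 0 in both cKO groups, with Hbb-bt also at 0 in cKO Ctrl and Hbb-bs in cKO IR). B cell markers summed to 8.98 to 9.05 CPM in WT Ctrl, 7.40 to 8.48 in cKO Ctrl, 3.27 to 4.26 in WT IR and 3.57 to 4.12 in cKO IR (at least 5 of 6 markers found in each group), so they were lower in both IR groups. The part of these cells in the Input results given below was not tested.

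Most stop codon summits lay on the coding side. The summit was before the stop codon in 1763 peaks, inside it in 10 and after it in 716 (28.8%), with a median of 64 bases before it and quartiles at 130 before and 19 after. On the assigned transcript 1482 summits (59.5%) fell in coding sequence, 705 (28.3%) in the 3′ UTR and 284 (11.4%) in an intron. Counted over every protein-coding transcript of the gene, 255 summits lay in an intron of all of them and 2234 in an exon of at least 1. The peaks were spread over the window, with 632 summits within 50 bases of the stop codon, 657 over 50 and up to 100 bases away, 666 over 100 and up to 150, and 534 further out. The 176 members just inside the limit (its last 20 bases) had a median lowest fold of 2.65, and the 121 shared peaks up to 20 bases outside it of 2.52. Peaks near stop codons made up 20.5% of the consensus peaks (those in all 3 replicates) in WT Ctrl, 20.9% in cKO Ctrl, 19.6% in WT IR by label and 18.0% in cKO IR by label.

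**Figure D1:**
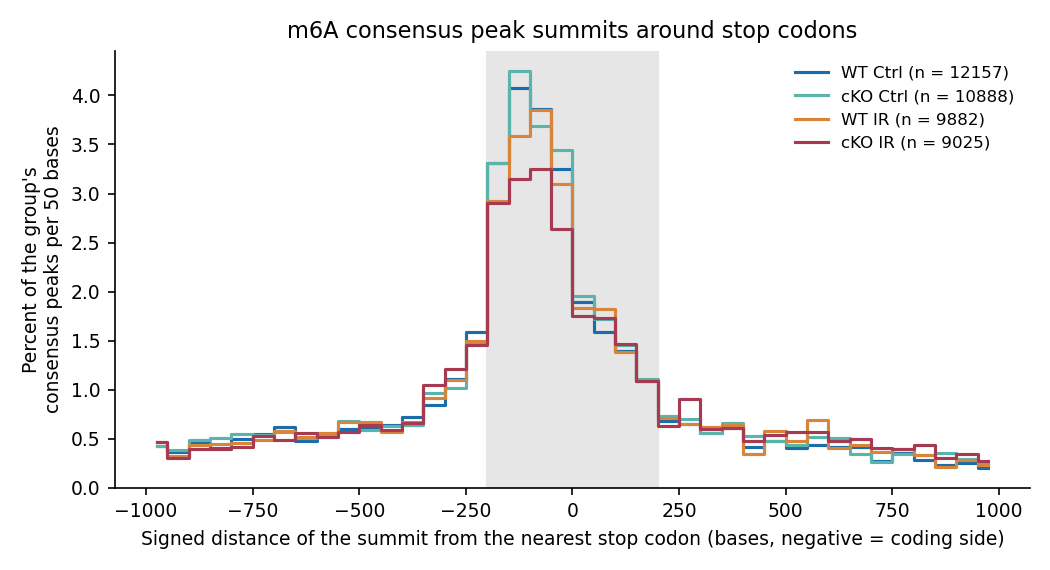
Signed distance of consensus peak summits from the nearest stop codon (x axis, bases, negative on the coding side) against the percent of each group's consensus peaks per 50 bases (y axis), 1 line per IP group, with the 200-base window shaded. The lines of the 4 groups run close together, and inside the window the coding side holds more summits than the 3′ side, with 28.8% of WT Ctrl members after the stop codon.

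The stop codon peaks were wider and weaker than the other WT Ctrl peaks. Their median width was 391 bases against 274 for the 9668 shared peaks elsewhere. Fold enrichment is the authors' ratio of IP signal at the summit over the control library, and the value used here is the lowest of the 3 WT Ctrl replicates. Its median was 2.49 (quartiles 1.91 and 3.62, range 1.18 to 42.1) for stop codon peaks and 3.13 for the others, and 19.8% of stop codon peaks reached 4-fold in every replicate against 33.3% of the others.

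The strongest stop codon peaks belonged to Cish, Rnase2a, Irgc1, Id1, Chn2, Car4, Ocstamp, Cenpm, Hs3st3b1 and Mgl2. Cish, a SOCS family inhibitor of cytokine receptor signalling, had fold enrichments of 42.6, 42.1 and 47.1 in the 3 WT Ctrl libraries, on a peak of 1703 bases whose nearest stop codon belongs to a short transcript with a coding length of 186 bases. Rnase2a, an eosinophil-type ribonuclease, had 30.3, 30.8 and 30.4, and Id1, an inhibitor of basic helix-loop-helix transcription factors, had 17.0, 21.04 and 18.0. The other 7, among them Ocstamp, which takes part in osteoclast fusion, Cenpm, a kinetochore subunit, and Hs3st3b1, a heparan sulfate sulfotransferase, had lowest folds of 14.5 to 18.4. All 10 were called in each of the other 9 IP libraries, at folds that were not alike in all groups. Mgl2, a macrophage lectin, had 16.4, 14.5 and 15.1 in WT Ctrl, 16.1, 13.5 and 13.2 in cKO Ctrl and, by label, 22.8, 26.6 and 19.7 in WT IR and 25.02, 23.5 and 22.9 in cKO IR, so both IR groups lay above both Ctrl groups. Chn2, a Rac GTPase-activating protein, ran lower in the libraries labelled WT IR (6.64, 8.54 and 13.6) than in WT Ctrl (16.5, 17.5 and 17.4), cKO Ctrl (14.4, 14.5 and 13.7) and the libraries labelled cKO IR (14.03, 14.03 and 12.4). Car4, a membrane carbonic anhydrase, had 0 to 0.255 CPM in every Input and 78.4 to 196 CPM in every IP, so its folds of 16.4, 17.2 and 16.2 in WT Ctrl rest on hardly any Input reads.

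Genes with a stop codon peak were somewhat shorter than tested genes at large. Their median coding length was 1086 bases with 7 exons and a last exon of 1125 bases, against 1362 bases, 9 exons and 1313 bases over the 12096 protein-coding genes tested, and the median 3′ UTR was 832 against 990 bases. The 2004 tested genes whose WT Ctrl peaks all lay elsewhere had longer last exons (median 1547.5 bases) and 3′ UTRs (1072.5 bases). The stop codon was in the last exon in 97.9% of member genes and 95.8% of tested protein-coding genes. Stop codon peaks were carried by 18.4% of the protein-coding genes tested. These genes had more reads behind them, with a median of 26.7 CPM in WT Ctrl Inputs against 10.3 over all genes tested, which is a read depth and not a level per length.

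The m6A consensus was searched as GGACT, then GGACA, then GGACC, then GAACT and then AGACT on both strands, in windows that reach 50 bases to either side of the summit. GGACT was present on the transcript strand in 350 of 2489 stop codon windows (14.1%, Wilson 95% interval 12.8 to 15.5%) and on the opposite strand in 9.64%. Other WT Ctrl peaks held it in 10.8% of windows on the transcript strand and 8.43% on the opposite strand. Windows of the same length around the stop codons of 7860 tested genes without a WT Ctrl peak held it in 13.5% and 9.57%, close to the stop codon peaks and within the interval of their share on the transcript strand. Any of the 5 motifs was found in 52.4% of stop codon windows, 45.7% of other peaks and 51.1% of stop codons without a peak. The motif was more frequent where the summit lay after the stop codon, with GGACT in 18.9% of those 716 windows against 12.2% of the 1763 windows before it (11.7% and 8.68% on the opposite strand). GGACA, which was present in 16.5% of all stop codon windows, was found in 19.7% of the 1160 peaks shared by all 4 groups and in 13.5% of the 266 with a consensus peak in no other group.

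GGACT sites lay more often on the 3′ side of these summits. Within 100 bases, 425 sites were downstream and 341 upstream (171 and 137 per 1000 peaks), while the opposite strand held 231 and 263. Other WT Ctrl peaks had 1102 downstream and 1135 upstream (114 and 117 per 1000). In steps of 20 bases, stop codon peaks held 17.3 sites per 1000 at -200 to -180 bases and 24.9 at -20 to 0. After the summit they held 33.7 at 0 to 20 and 32.5 at 180 to 200, so the sites did not centre on the summit. Stop codons without a peak were not counted by position. At least 1 GGACT lay within 100 bases of the summit in 654 stop codon peaks (26.3%), and 108 had more than 1. Id1 and Cenpf, shown above, are examples after the stop codon, and Hs3st3b1 and Thy1 have sites close before it. These sites are counted from the genome sequence, and peaks are not replicates, so no test was made.

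**Figure D2:**
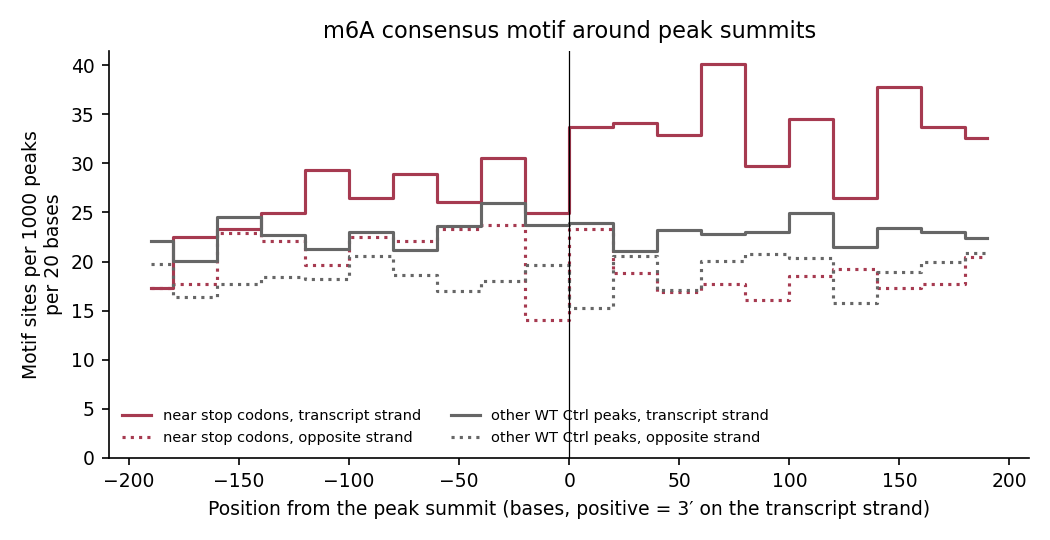
Position of GGACT sites relative to the peak summit (x axis, bases, positive towards the 3′ end of the transcript) against sites per 1000 peaks per 20 bases (y axis), for stop codon peaks and other WT Ctrl peaks on the transcript strand and the opposite strand. Stop codon peaks hold 171 sites per 1000 peaks in the 100 bases after the summit and 137 in the 100 bases before it.

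Stop codon peaks were found again most often in cKO Ctrl, less often in the libraries labelled WT IR and least often in those labelled cKO IR. Per library, 88.1, 91.7 and 89.7% of the 2489 were overlapped by a cKO Ctrl peak (mean 89.9 ± 1.79, SD, n = 3), 79.1, 84.3 and 80.4% by a peak of the libraries labelled WT IR (81.2 ± 2.72) and 69.6, 69.2 and 66.9% by a peak of those labelled cKO IR (68.6 ± 1.48). The 3 groups did not overlap. The difference from cKO Ctrl was -8.62 percentage points for WT IR and -21.3 for cKO IR, and cKO IR differed from WT IR by -12.7. Each of these 3 comparisons gave an exact two-sided permutation p = 0.1 (0.1 after adjustment over the 3), the smallest that 3 against 3 libraries allow, so the design cannot reach 0.05. They share groups with each other. With both IR groups pooled, which uses no genotype label of the IR libraries, the difference from cKO Ctrl was -15.0 points (exact permutation p = 0.0238, the smallest of 84 arrangements). This pooling was not planned. It sets both genotypes after irradiation against cKO Ctrl alone, so irradiation and genotype cannot be told apart in it. The pooled IR groups also differed from each other, as given above. The WT Ctrl peaks elsewhere showed the same order, at means of 85.5, 78.4 and 70.7%. The peak lists differed in length, with 17408 to 17608 peaks per library in WT Ctrl, 15503 to 16263 in cKO Ctrl, 14870 to 17442 in WT IR and 13470 to 14041 in cKO IR by label. WT IR replicate 2 had the most peaks and the largest share of its group. The part of list length in these shares was not tested.

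**Figure D3:**
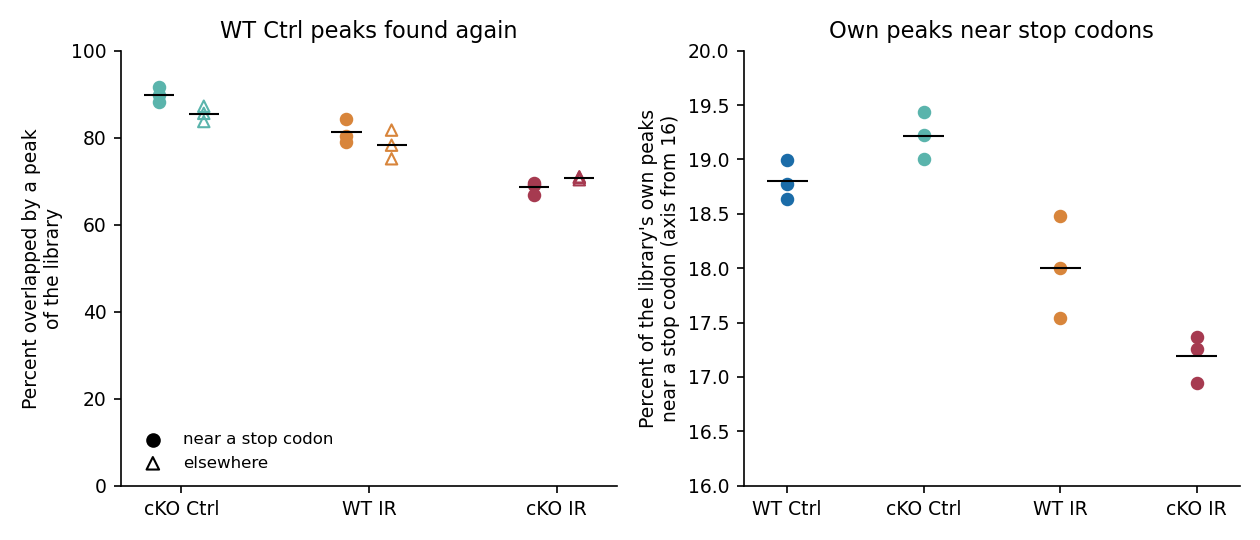
Left, percent of WT Ctrl consensus peaks overlapped by a peak of each library (y axis) in cKO Ctrl, WT IR and cKO IR by label, with filled circles for the 2489 stop codon peaks and open triangles for the peaks elsewhere. Right, percent of each library's own peaks with the summit near a stop codon, with an axis that starts at 16. The left panel falls from 88.1 to 91.7% in cKO Ctrl to 66.9 to 69.6% in the libraries labelled cKO IR, and the right panel puts the cKO IR libraries lowest, at 16.9 to 17.4%.

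Counted as consensus peaks, 2021 stop codon peaks (81.2%) had one in cKO Ctrl, and, by label, 1697 (68.2%) in WT IR and 1393 (56.0%) in cKO IR, against 74.4, 64.4 and 58.4% of the peaks elsewhere. Stop codon peaks were thus the more frequently found set in cKO Ctrl and WT IR and the less frequently found set in cKO IR by label, which is a description, since peaks are not replicates. All 3 other groups held 1160 of them (46.6%), exactly 2 held 568, exactly 1 held 495 and none held 266 (10.7%). A peak was called in every one of the other 9 libraries for 1167 members and in none of them for 15 (0.603%).

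Weak peaks were found again least often. Among the 723 with a lowest fold of 1 to 2, 72.8% had a consensus peak in cKO Ctrl, 60.3% in WT IR and 43.8% in cKO IR by label. Among the 182 at 6-fold or more these shares were 94.0, 80.8 and 79.7%, above those of the 1320 equally strong peaks elsewhere (87.5, 76.1 and 68.3%). In the weakest class the order between the sets was different for cKO IR, where 55.4% of the 1604 peaks elsewhere were found again. Summits before and after the stop codon were found again alike in cKO Ctrl (81.6 and 80.3%), while in the libraries labelled cKO IR the shares were 53.7% before and 61.7% after it.

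The largest incomplete pattern was a consensus peak in cKO Ctrl and WT IR but not in cKO IR, with 405 stop codon peaks (16.3%, against 11.4% of the peaks elsewhere). Of the genes of these peaks, 281 of 372 tested were called higher and 10 lower in the Inputs of cKO IR vs WT IR (background 23.9% higher and 23.8% lower over all genes), with a median log2 difference of 0.33. Of the genes whose peak was shared by all 4 groups, 460 of 1055 were higher and 192 lower (median 0.13). Of those found again in cKO IR but not in cKO Ctrl or WT IR, 7 of 66 were higher and 27 lower (median -0.12). This sets IR IP and Input libraries together by label. With the genotype of the IR IP libraries taken from Lyz2 instead, the 2 IP groups would change places against the Inputs, so no direction between the presence of a peak and Input counts is read from it. The fold of a peak is a ratio over a control library, so presence of a peak and Input counts are not independent measures.

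Each library's own peak list held a smaller share near stop codons after irradiation. This share counts every peak of a list, but the 3 WT Ctrl lists are those the rule drew on. The share was 18.8, 18.995 and 18.6% in WT Ctrl, 19.4, 19.2 and 19.002% in cKO Ctrl, 18.5, 17.5 and 18.0% in WT IR by label and 17.3, 17.4 and 16.9% in cKO IR by label. Every IR library lay below every Ctrl library. The mean was 17.6% in IR and 19.01% in Ctrl libraries, a difference of -1.41 points (exact permutation within genotype labels p = 0.005, the smallest of 400 arrangements). Without the genotype labels the exact p was 0.00216. Both of these p-values include the WT Ctrl lists, so they are not independent of the rule. By label, the difference within WT was -0.797 points and within cKO -2.03, each with an exact permutation p = 0.1, the smallest possible. The cKO difference uses no WT Ctrl list. By Lyz2 the IR libraries of WT and cKO would change places, so no difference between genotypes is read from these values.

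Some stop codon peaks came and went by whole groups. Ythdf2 itself had a peak (chr4:132186771-132187084, - strand) with its summit 21 bases before the stop codon, with folds of 1.58, 2.28 and 2.20 in WT Ctrl and 2.74, 3.48 and 2.59 in the libraries labelled WT IR, and no peak in any of the 6 cKO libraries. IP counts of the gene were 213, 210.4 and 202 CPM in WT Ctrl, 194, 178 and 179 in cKO Ctrl, 154, 151 and 168 in WT IR and 188, 196 and 189 in cKO IR by label. The IP counts therefore do not part along the presence of the peak. In the Ctrl groups the peak was present where the Input counts given above were lower, and in IR this depends on whether the IP libraries are taken by label or by Lyz2.

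The same pattern of presence held for the interferon-stimulated genes Rtp4 and Ifitm3. Rtp4, a chaperone of membrane receptors, had folds of 4.04, 4.59 and 1.89 in WT Ctrl and 5.01, 4.88 and 7.72 in WT IR by label, with the summit 152 bases before the stop codon, and no peak in the 6 cKO libraries. Its Input counts were 4.07, 4.01 and 4.32 CPM in WT Ctrl, 16.1, 14.4 and 15.5 in cKO Ctrl, 2.82, 2.42 and 1.71 in WT IR and 20.6, 16.2 and 17.7 in cKO IR. Every cKO Input lay above every WT Input, but for IR the peaks and the Inputs are matched by label only. Its IP counts were 9.83, 9.42 and 9.56 CPM in WT Ctrl, 7.90, 7.26 and 9.45 in cKO Ctrl, 12.2, 10.5 and 12.4 in WT IR and 6.78, 6.84 and 7.36 in cKO IR by label, a narrower range than in the Inputs. Ifitm3, an antiviral membrane protein, had folds of 1.55, 1.53 and 1.81 in WT Ctrl and 2.07, 1.70 and 1.78 in WT IR by label, and none in cKO. Ifitm3 has close copies in the genome that may share its reads. Zbp1, a nucleic acid sensor, had folds of 8.14, 4.01 and 7.16 in WT Ctrl and 9.92, 6.82 and 9.80 in WT IR by label, no peak in cKO Ctrl, and peaks in 2 of the 3 libraries labelled cKO IR.

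Thy1 and Rgs1 were absent from both IR groups instead. Thy1, a surface glycoprotein best known from T cells, had folds of 7.26, 6.60 and 3.57 in WT Ctrl and 4.79, 4.27 and 5.05 in cKO Ctrl and no peak in any IR library. Its IP counts were 6.06, 6.53 and 5.45 CPM in WT Ctrl, 5.01, 4.26 and 4.45 in cKO Ctrl, 2.70, 2.31 and 2.55 in WT IR and 1.97, 2.50 and 2.30 in cKO IR by label, so every IR library lay below every Ctrl library. Rgs1, a regulator of G protein signalling, had folds of 2.24, 2.47 and 2.15 in WT Ctrl and 1.65, 2.20 and 1.69 in cKO Ctrl and none after irradiation. Its IP counts were 98.2, 100.7 and 93.0 CPM in WT Ctrl, 73.9, 69.1 and 69.8 in cKO Ctrl, 79.6, 77.6 and 82.9 in WT IR and 128, 129.6 and 124 in cKO IR. For Rgs1 the libraries labelled cKO IR had the highest IP counts of all. Its Input counts were 54.5, 54.4 and 55.4 CPM in WT Ctrl and 58.5, 58.2 and 53.8 in cKO Ctrl. After irradiation they were 81.7, 96.3 and 97.8 in WT IR and 108.6, 110.1 and 102.5 in cKO IR. Every IR Input of Rgs1 thus lay above every Ctrl Input, and the fold of a peak is a ratio over a control library. T cell markers summed to 121 to 126 CPM in WT Ctrl Inputs, 127 to 133 in cKO Ctrl, 143 to 174 in WT IR and 142 to 148 in cKO IR (with Cd3e at 0 in all groups but cKO IR, Cd3g in all but WT Ctrl and Trac in cKO Ctrl), so their sum was higher in both IR groups. Their part in the Thy1 result was not tested.

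Ccnb1, Cdc20 and Cdc25b, all on the cell cycle list, had no peak in the libraries labelled cKO IR. The mitotic cyclin gene Ccnb1 had folds of 3.47, 2.57 and 4.70 in WT Ctrl, 5.93, 6.11 and 8.20 in cKO Ctrl and 5.48, 5.12 and 4.95 in WT IR, and no peak in cKO IR by label. Cdc20, an activator of the anaphase-promoting complex, and Cdc25b, a phosphatase that activates mitotic kinases, also lacked a peak in 1 library labelled WT IR each. The summits of all 3 genes lay in an intron of the assigned transcript, and distances to the stop codon are genomic. The motif taken for each lay in coding sequence, 2 bases after the summit in Ccnb1, 5 in Cdc20 and 20 in Cdc25b. These summits were thus close to coding sequence. Ifi203, an interferon-inducible gene, had folds of 6.08, 4.84 and 5.36 in WT Ctrl and none in cKO IR by label.

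The 15 stop codon peaks with no counterpart in the other 9 libraries included modest and strong ones. The largest lowest fold among them was that of Mucl1, a mucin-like gene (chr15:103751987-103752254, - strand), with 6.16, 4.70 and 5.61 in WT Ctrl. Its IP counts were 20.7, 18.2 and 19.6 CPM in WT Ctrl, 5.20, 5.53 and 6.80 in cKO Ctrl, 1.76, 1.85 and 1.88 in WT IR and 7.28, 7.22 and 6.92 in cKO IR by label, so WT Ctrl stood above all other groups. Its Input counts were 2.47, 2.73 and 1.75 in WT Ctrl and 8.99, 8.90 and 8.22 in cKO IR. Bbs12, which encodes a protein of a ciliary chaperonin complex, had 5.07, 3.55 and 4.76, and Guk1, the guanylate kinase gene, 3.50, 3.89 and 3.63. Stub1, a ubiquitin ligase that acts with chaperones, had 2.71, 3.21 and 2.43, and Aif1, a macrophage calcium-binding protein, 2.44, 2.32 and 2.20. Tmsb15l, Rexo4, Filip1l, Ctdnep1 and Slamf8 completed the 10 with the largest values, down to 1.86, 1.75 and 1.93 in Slamf8. Tmsb15l lay near stop codons of more than 1 gene.

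Other stop codon peaks were present everywhere and differed in fold. Ffar2, a receptor for short-chain fatty acids, had 11.1, 11.9 and 16.2 in WT Ctrl, 23.4, 28.5 and 40.8 in cKO Ctrl, 36.1, 38.4 and 36.4 in WT IR and 34.3, 35.8 and 35.3 in cKO IR by label, so WT Ctrl was lowest. Its Input counts were highest in WT Ctrl, at 4.19, 3.50 and 4.19 CPM against 1.38, 1.49 and 2.096 in cKO Ctrl, 0.327, 0.196 and 0.483 in WT IR and 0.399, 0.772 and 0.331 in cKO IR, while its IP counts ran from 67.1 to 121 CPM over all groups. Arg1, the arginase of suppressive myeloid cells, had 18.5, 10.7 and 11.4 in WT Ctrl and 4.10, 7.90 and 4.72 in the libraries labelled WT IR. Its Input counts rose with irradiation, as given with the irradiation contrasts.

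**Figure D4:**
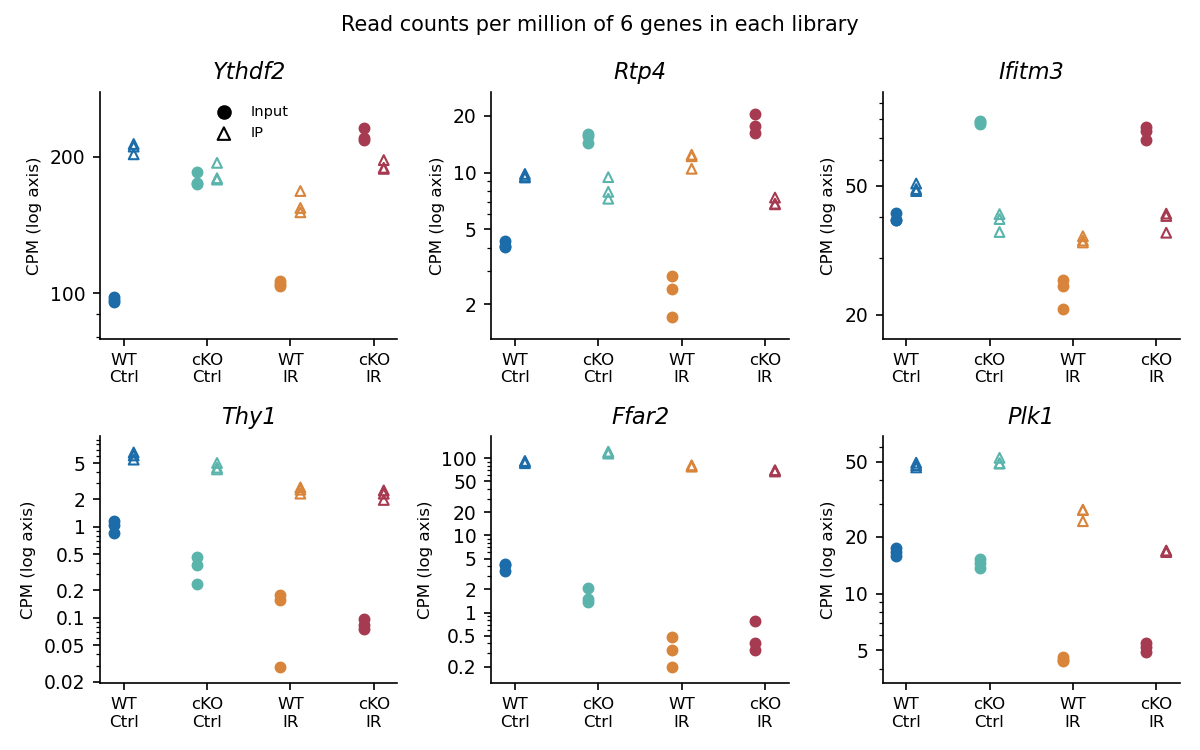
CPM (y axes, log scale) of Ythdf2, Rtp4, Ifitm3, Thy1, Ffar2 and Plk1 in each library, by group (x axis), with filled circles for Input and open triangles for IP libraries. Rtp4 and Ifitm3 Inputs are higher in both cKO groups than in both WT groups, Thy1, Ffar2 and Plk1 Inputs are lower in both IR groups than in the matching Ctrl groups, and the IP counts of Ffar2 stay within 67.1 to 121 CPM.

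Peaks that were lost had lower gene-level IP counts, by the edgeR estimates against WT Ctrl. The 181 stop codon peaks (7.27%) with a peak in none of the WT IR libraries by label had a median IP log2 difference from WT Ctrl of -0.46, and the 1697 kept in all 3 libraries had -0.24, while the Input medians were 0.01 and -0.10. For cKO Ctrl, the 80 lost peaks (3.21%) had a median IP difference of -0.21 and the 2021 kept had 0.01, with Input medians of 0.12 and 0.03. For cKO IR by label, 504 were lost (20.2%), with a median IP difference of -0.30 against -0.09 for those kept. Lost and kept peaks were defined from the same IP libraries, so these medians are a description.

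Genes with a stop codon peak were enriched in the IP over the Input as whole genes in every group. In cKO Ctrl, 1997 of 2227 tested member genes (89.7%) had higher IP than Input counts by edgeR's quasi-likelihood test with a Benjamini-Hochberg adjusted p under 0.05, against 37.8% of all 17373 genes tested. The share was 88.0% (1960 genes; background 37%) in WT IR and 83.4% (1858; background 36.9%) in cKO IR by label, and 88.3% when both IR groups were pooled. In WT Ctrl, where the rule used the IP, it was 92.4% (background 38.1%), given as a description. The median log2 IP over Input of member genes was 0.99 in WT Ctrl, 0.93 in cKO Ctrl, 0.82 in WT IR and 0.74 in cKO IR by label. The IR values set IP against Input libraries that go against each other by Lyz2.

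The Input libraries were compared in 5 contrasts over 16090 genes, of which 2222 carried a stop codon peak. A further 171 genes with such a peak were not tested, 151 of which are not analysed here and the rest of which had too few counts. WT Ctrl Input libraries take part in 3 of the 5, namely the interaction, WT IR vs WT Ctrl and cKO Ctrl vs WT Ctrl. They may be the controls of the WT Ctrl peak calls, so these 3 are not independent of the rule. Only cKO IR vs cKO Ctrl and cKO IR vs WT IR use no WT Ctrl library. The contrasts share groups, so their values are set side by side only.

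**Figure D5:**
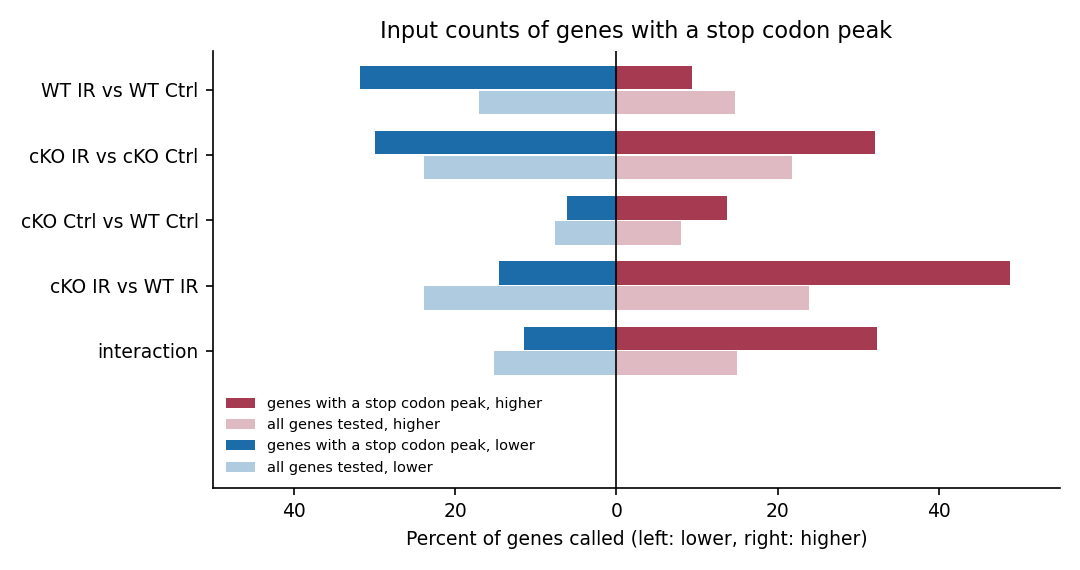
Percent of genes called in the 5 Input contrasts (x axis, lower to the left and higher to the right) for genes with a stop codon peak (dark bars) and all genes tested (light bars). The widest gap is in cKO IR vs WT IR, where 48.8% of genes with a stop codon peak were higher against 23.9% of all genes.

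In WT IR vs WT Ctrl, the effect of irradiation in WT, genes with a stop codon peak fell more often than they rose. By edgeR's quasi-likelihood test (Benjamini-Hochberg adjusted p under 0.05), 707 member genes (31.8%) were lower and 208 (9.36%) higher, against 17% lower and 14.7% higher (31.7% in either direction) over all genes, with median log2 changes of -0.08 and 0.01. Among the 2004 genes with WT Ctrl peaks only elsewhere, 28.5% were lower and 13.6% higher. At least 2-fold, 102 member genes fell (4.59%, against 2.86% of all genes) and 4 rose (0.18% against 1.5%). In cKO IR vs cKO Ctrl, 666 (29.97%) were lower and 712 (32.0%) higher, against 23.8 and 21.8% (45.6% in either direction) over all genes. At least 2-fold, 50 member genes fell (2.25%, against 2.11% of all genes) and 11 rose (0.495% against 1.59%).

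Ffar2, Thy1, G0s2, Asgr2 and Rab44 were among the deepest falls in WT IR vs WT Ctrl, and these 5 also fell in cKO. Ffar2, with the counts above and no overlap between IR and Ctrl in either genotype, had a log2 change of -3.55 ± 0.29 (SE, edgeR adjusted p = 9e-09) for WT and -1.72 ± 0.28 (SE, edgeR adjusted p = 4.3e-05) for cKO. G0s2, an inhibitor of the lipase ATGL, went from 5.11, 4.85 and 5.004 to 0.576, 0.767 and 1.24 CPM in WT and from 1.83, 1.83 and 1.54 to 0.757, 0.941 and 1.01 in cKO, with log2 changes of -2.52 ± 0.20 (SE, edgeR adjusted p = 5.7e-09) and -0.94 ± 0.21 (SE, edgeR adjusted p = 0.00088). Thy1 Input counts fell from 1.04, 0.862 and 1.151 to 0.156, 0.181 and 0.0293 CPM in WT, with a log2 change of -3.05 ± 0.47 (SE, edgeR adjusted p = 3.6e-05). These are low counts. Asgr2, a lectin of the asialoglycoprotein receptor, fell by 2.32 in WT and by 1.84 in cKO on the log2 scale, and Rab44, a large Rab GTPase, by 2.24 and 2.33. B cell marker sums were lower in the same IR libraries, and erythroid marker sums higher in WT IR, as given above.

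The rises with irradiation were led by Inka2 and Arg1 in WT and by Rnase2a in cKO, where it went from 0.279, 0.0593 and 0.251 CPM to 0.826, 0.520 and 0.601, a log2 change of 1.74 ± 0.47 (SE, edgeR adjusted p = 0.0043). Inka2, an inhibitor of the kinase PAK4, went from 2.24, 2.84 and 2.96 CPM to 8.04, 8.15 and 6.85 in WT and from 2.98, 2.36 and 2.81 to 8.82, 8.62 and 6.94 in cKO. The groups did not overlap within either genotype, and the log2 change of WT was 1.52 ± 0.13 (SE, edgeR adjusted p = 1.4e-08) and that of cKO 1.58 ± 0.13 (SE, edgeR adjusted p = 3.8e-09). Arg1 went from 1.78, 1.79 and 2.31 CPM to 4.64, 4.23 and 5.24 in WT, a log2 change of 1.26 ± 0.15 (SE, edgeR adjusted p = 1.2e-06), and from 2.04, 1.97 and 2.29 to 4.38, 5.31 and 6.18 in cKO, a change of 1.33 ± 0.15 (SE, edgeR adjusted p = 2.5e-07). Cdkn1a, the p53-induced inhibitor of cyclin-dependent kinases, had 88.0, 86.5 and 87.2 CPM in WT Ctrl, 95.3, 97.9 and 99.0 in cKO Ctrl, 196, 199.2 and 200.6 in WT IR and 203.8, 202 and 203.8 in cKO IR, and its log2 change was 1.19 ± 0.03 (SE, edgeR adjusted p = 3.5e-16) for WT and 1.06 ± 0.03 (SE, edgeR adjusted p = 3.8e-15) for cKO. Its stop codon peak, 109 bases after the stop codon, had folds of 2.02, 1.72 and 1.93 in WT Ctrl and 1.60, 1.34 and 1.34 in WT IR by label. Ccl17, a chemokine that attracts CCR4-bearing T cells, rose by 0.50 in WT and 1.19 in cKO on the log2 scale, from 13.5, 13.03 and 12.5 CPM in cKO Ctrl to 28.3, 30.6 and 30.4 in cKO IR.

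In cKO Ctrl vs WT Ctrl, the effect of genotype without irradiation, more genes with a stop codon peak were higher than lower. The edgeR test called 306 (13.8%) higher and 136 (6.12%) lower in cKO, against 8.05 and 7.61% (15.7% in either direction) over all genes, with medians of 0.03 and 0.00. Without WT Ctrl Input replicate 3, 202 member genes (9.10%) were higher, against 5.95% of all genes. With only the 6 libraries of the contrast in the fit, 464 (20.9%) were higher and 222 (10%) lower, against 12.99 and 12.4% of all genes. Genes with WT Ctrl peaks only elsewhere gave similar shares, 13.5 and 6.59%. At least 2-fold, 4 member genes rose (0.18%, against 0.447% of all genes) and 10 fell (0.45% against 1.72%).

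Rtp4, Ccl7, Zbp1, Ifitm3 and Ccl4 had the largest rises in cKO Ctrl among the called genes whose groups did not overlap (Car4 differed more, at hardly any Input reads and with overlapping groups). The rise of Ccl7 (edgeR adjusted p = 0.023) was lost without WT Ctrl Input replicate 1 (0.061) or 3 (0.118) or cKO Ctrl replicate 1 (0.104). Rtp4 differed by 1.89 ± 0.12 (SE, edgeR adjusted p = 4e-10), with the counts given above, and Zbp1 by 1.14 ± 0.07 (SE, edgeR adjusted p = 1.7e-10), from 11.2, 9.89 and 10.6 CPM in WT Ctrl to 22.7, 23.9 and 23.3 in cKO Ctrl. Ifitm3 had 39.2, 39.3 and 41.1 CPM in WT Ctrl, 78.6, 79.1 and 77.2 in cKO Ctrl, 20.8, 25.6 and 24.5 in WT IR and 75.9, 69.2 and 73.8 in cKO IR, and differed by 0.97 ± 0.06 (SE, edgeR adjusted p = 2.2e-10). The chemokine gene Ccl4 had 8.62, 8.401 and 9.75 CPM in WT Ctrl and 17.2, 16.5 and 17.2 in cKO Ctrl, a log2 difference of 0.93 ± 0.08 (SE, edgeR adjusted p = 1e-07). Smpdl3b, a lipid-modifying enzyme known to restrain Toll-like receptor signalling, had 26.3, 24.03 and 22.7 CPM in WT Ctrl and 40.8, 44.5 and 41.1 in cKO Ctrl, a log2 difference of 0.79 ± 0.06 (SE, edgeR adjusted p = 2.7e-09). No cKO library of these genes overlapped a WT library. Among genes that fell, G0s2 differed by -1.52 ± 0.19 (SE, edgeR adjusted p = 5.8e-06) and Ltb, which encodes lymphotoxin beta, by -1.22 ± 0.12 (SE, edgeR adjusted p = 3e-07), from 7.82, 8.78 and 9.004 to 3.42, 3.55 and 4.05 CPM.

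The contrast cKO IR vs WT IR gave the largest shift of genes with a stop codon peak. Of 2222 tested, 1085 (48.8%) were higher and 324 (14.6%) lower in cKO IR, against 23.9 and 23.8% (47.7% in either direction) over all genes, with medians of 0.17 and 0.00. Genes with WT Ctrl peaks only elsewhere were 32.5% higher and 25.1% lower, and the 7870 protein-coding genes without a WT Ctrl peak 20.2 and 29.7%. The shift was also seen among genes of like depth: in the third of 5 equal groups by Input level, 54.96% of 695 member genes were higher and 6.04% lower, against 28.8 and 22.1% of the other genes, and in the deepest group 47.0 and 27.8% against 28.7 and 48.8%. At least 2-fold, 22 member genes were higher (0.99%, against 1.54% of all genes) and 3 lower (0.135% against 3.32%). Erythroid markers are high in the WT IR Inputs of this contrast, and their part in it was not tested.

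Ccl7, a monocyte-attracting chemokine, had the largest of these rises after Car4, which has hardly any Input reads, from 0.109, 0.211 and 0.102 CPM in WT IR to 0.950, 1.502 and 1.58 in cKO IR. The log2 difference was 3.24 ± 0.40 (SE, edgeR adjusted p = 1e-06), at low counts. Rtp4 differed by 2.97 ± 0.13 (SE, edgeR adjusted p = 3.5e-13), Ifitm3 by 1.63 ± 0.06 (SE, edgeR adjusted p = 5.7e-14) and Zbp1 by 1.62 ± 0.07 (SE, edgeR adjusted p = 3.2e-13). Ccl4 had 6.60, 5.16 and 6.69 CPM in WT IR and 18.9, 18.2 and 19.5 in cKO IR, a log2 difference of 1.62 ± 0.09 (SE, edgeR adjusted p = 1.1e-11), and Mucl1 3.55, 3.01 and 3.19 and 8.99, 8.90 and 8.22, a log2 difference of 1.42 ± 0.13 (SE, edgeR adjusted p = 3e-08). Slamf9, a SLAM family receptor of myeloid cells, was higher by 1.38 on the log2 scale, with 4.17, 4.26 and 3.98 CPM in WT IR and 10.4, 11.4 and 10.6 in cKO IR. Among genes that were lower, Rab44 differed by -1.36 ± 0.16 (SE, edgeR adjusted p = 6.1e-07) and Myo7a, an unconventional myosin, by -0.99 ± 0.06 (SE, edgeR adjusted p = 2.1e-11), with 64.6, 54.5 and 54.5 CPM in WT IR and 29.0, 29.8 and 28.8 in cKO IR.

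The interaction (the log2 change with irradiation in cKO less the change in WT) was above 0 for 719 genes with a stop codon peak (32.4%) and below 0 for 253 (11.4%), against 15 and 15.2% (30.2% in either direction) over all genes. Upp1, a uridine phosphorylase, had 17.8, 17.9 and 16.7 CPM in WT Ctrl, 14.8, 14.5 and 15.1 in cKO Ctrl, 11.4, 9.34 and 10.9 in WT IR and 21.3, 20.9 and 22.1 in cKO IR. With irradiation it fell in WT, by a log2 change of -0.73 ± 0.07 (SE, edgeR adjusted p = 8.5e-08), and rose in cKO, by 0.54 ± 0.07 (SE, edgeR adjusted p = 1.6e-06). The interaction was 1.26 ± 0.10 (SE, edgeR adjusted p = 2e-08). The macrophage mannose receptor gene Mrc1 went the other way, with 213, 204.1 and 219.7 CPM in WT Ctrl, 253, 251 and 243 in cKO Ctrl, 212, 251 and 225 in WT IR and 182, 186 and 175 in cKO IR and an interaction of -0.57 ± 0.07 (SE, edgeR adjusted p = 2.4e-06). Its 2 stop codon peaks were called in all 12 IP libraries.

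By pathway, stop codon peaks were most frequent among the cell cycle genes: 21 of 30 tested (70.0%) had one, against 18.4% of tested protein-coding genes. With irradiation, 20 of the 21 fell in WT and 16 in cKO, and none rose (whole list, 28 and 24 of 30 lower). The median log2 change of the 21 was -1.13 in WT and -0.76 in cKO, against 0.01 over all genes in each. Mki67, the proliferation marker, had 313, 313 and 317 CPM in WT Ctrl, 273, 271 and 266 in cKO Ctrl, 134, 131 and 127 in WT IR and 102, 101.3 and 102 in cKO IR, with changes of -1.27 ± 0.03 (SE, edgeR adjusted p = 8.1e-17) and -1.41 ± 0.03 (SE, edgeR adjusted p = 3.5e-17). Plk1, a mitotic kinase, had 17.4, 15.8 and 16.7 CPM in WT Ctrl, 13.6, 15.3 and 14.6 in cKO Ctrl, 4.44, 4.38 and 4.61 in WT IR and 5.47, 4.91 and 5.21 in cKO IR, and fell by 1.89 in WT and 1.48 in cKO on the log2 scale. Top2a, the topoisomerase of dividing cells, fell by 1.52 and 1.18, and the cyclin gene Ccnb2 by 1.93 and 1.33. In cKO IR vs WT IR, 13 of the 21 were higher and 1 lower (whole list, 16 and 3 of 30). Over all genes 23.9% were higher and 23.8% lower, and over genes with a stop codon peak 48.8 and 14.6%. Counts of called genes on the lists below stand beside the shares over all genes given with each contrast. Of these 13, Plk1 lost its call without any 1 of 5 of the 6 libraries (adjusted p = 0.0518 to 0.134, the exception being cKO IR Input replicate 2) and with DESeq2 (0.0596), and Cdc20 without WT IR replicate 2 (0.0851) or cKO IR replicate 3 (0.11). Folds over Input of the stop codon peaks were higher in the libraries labelled WT IR than in WT Ctrl for Plk1 (8.49, 8.69 and 8.86 against 5.60, 3.70 and 3.89), Mki67 (7.96, 5.22 and 5.48 against 3.30, 3.93 and 3.64) and Top2a (12.3, 13.4 and 7.36 against 4.99, 4.44 and 5.26), with no overlap between these groups. Over the same groups the Input counts were lower in IR.

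Among the p53 targets, 5 of 20 tested had a stop codon peak, and all 5 rose in cKO IR vs cKO Ctrl while 4 rose in WT (whole list, 17 and 16 of 20). Besides Cdkn1a these were Sesn2, a stress-induced inhibitor of mTORC1 signalling (0.65 in WT and 0.40 in cKO on the log2 scale), Plk2, a stress-induced kinase (0.29 and 0.42), the nuclease gene Aen (0.26 and 0.54) and Gtse1, whose rise in cKO was lost without cKO Ctrl Input replicate 3 (adjusted p = 0.158), cKO IR replicate 2 (0.0632) or replicate 3 (0.16).

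The m6A machinery itself carried stop codon peaks in 4 of 12 writer and eraser genes (Wtap, Virma, Rbm15b and Fto) and 3 of 13 reader genes (Ythdf2, Ythdc1 and Hnrnpa2b1). Wtap, a subunit of the methyltransferase complex, had peak folds of 3.30, 2.75 and 2.69 in WT Ctrl and in cKO IR vs WT IR a higher Input count, with a log2 difference of 0.47 ± 0.04 (SE, edgeR adjusted p = 2.3e-09), while Rbm15b, an RNA-binding partner of that complex, was lower (-0.26, edgeR adjusted p = 0.00023). Virma, the scaffold of the complex, was also lower in that contrast (-0.20, edgeR adjusted p = 0.00012). Of the 32 genes for deadenylation and decay, the machinery that YTHDF2 recruits, only Btg1 and Edc3 carried one, and both peaks were missing in most other libraries.

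Of the NF-kB inhibitors and negative regulators, 6 of 21 tested carried a stop codon peak: Nfkbie, Tnfaip3, Otulin, Metrnl, Smpdl3b and Trib3. In cKO Ctrl vs WT Ctrl 4 of the 6 were higher and none lower (whole list, 8 higher and 1 lower), and in cKO IR vs WT IR 4 were higher and 1 lower (9 and 5). Metrnl and Smpdl3b were put on the list because the study had chosen them on these samples, so their direction is no independent evidence. Metrnl, a secreted immune regulator, differed by 0.34 ± 0.04 (SE, edgeR adjusted p = 7.9e-06) in cKO Ctrl and 0.39 ± 0.04 (SE, edgeR adjusted p = 2.9e-07) in cKO IR, and its peak had folds of 2.35, 2.26 and 1.64 in WT Ctrl and 1.93, 2.31 and 1.93 in cKO Ctrl. Nfkbie, the inhibitor IκBε, differed by 0.19 ± 0.04 (SE, edgeR adjusted p = 0.0012) in cKO Ctrl. The call of Otulin, a deubiquitinase of linear ubiquitin chains, in cKO Ctrl vs WT Ctrl was lost without WT Ctrl Input replicate 3 (adjusted p = 0.0885) or cKO Ctrl replicate 2 (0.0683). Tnfaip3, which encodes the ubiquitin-editing enzyme A20, was the 1 lower gene, and that call was lost without WT IR replicate 3 (0.072) or any 1 of the 3 cKO IR replicates (0.0559 to 0.0874). Its peak was missing from every library labelled WT IR. Of the 13 NF-kB subunits and kinases tested, Traf6 carried one.

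Of the 26 genes on the interferon response list 2 carried a stop codon peak (Rtp4 and Irf3, 7.69%, against 18.4% of tested protein-coding genes). Ifitm3, Ifi203 and Zbp1, which are interferon-induced and carry one, are not on that list. In cKO Ctrl vs WT Ctrl 23 of the 26 were higher and in cKO IR vs WT IR 21, with none lower. The Irf3 call in cKO Ctrl was lost without WT Ctrl Input replicate 3 (adjusted p = 0.0815) or cKO Ctrl replicate 1 (0.0802). Among chemokines and receptors 4 of 22 had one (Ccl4, Ccl6, Ccl7 and Ccr2), and all 4 were higher in cKO IR vs WT IR (whole list, 19 higher and 2 lower). Ccr2, the receptor that draws monocytes from the marrow, had 147, 146 and 155 CPM in WT Ctrl, 198, 203 and 192 in cKO Ctrl, 67.5, 86.7 and 78.1 in WT IR and 100.3, 93.5 and 91.1 in cKO IR. It fell with irradiation by 0.94 in WT and 1.06 in cKO on the log2 scale.

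Of 33 myeloid transcription factor genes tested, 11 carried a stop codon peak. Batf, an AP-1 family factor, had 18.3, 17.3 and 17.9 CPM in WT Ctrl, 22.7, 22.6 and 22.01 in cKO Ctrl, 14.05, 12.6 and 14.1 in WT IR and 25.4, 26.5 and 26.5 in cKO IR. In cKO IR vs WT IR its log2 difference was 0.94 ± 0.06 (SE, edgeR adjusted p = 8e-11), and that of Cebpd, a C/EBP factor, was 0.73. On the whole list 10 of 33 genes were higher in cKO IR vs WT IR and 12 lower. Over all genes 23.9% were higher and 23.8% lower, and over genes with a stop codon peak 48.8 and 14.6%. Of the 11, 5 were higher (Batf, Cebpd, Batf3, Spi1 and Atf3) and 3 lower (Klf4, Jun and Bhlhe40). Of these, Bhlhe40 was lower with an adjusted p = 0.017 that became 0.0559 without WT IR replicate 3, and Jun with 0.04 that became 0.0743 to 0.165 without 1 of 4 libraries. Bhlhe40, a helix-loop-helix repressor, had peak folds of 4.39, 4.68 and 4.13 in WT Ctrl and was without a peak in the 3 libraries labelled WT IR. Suppressive effectors (Arg1, Il1rn and Mrc1, 3 of 19), cytokine feedback genes (Cish, Ptpn1 and Ptpn2, 3 of 18), ribosomal protein genes (Rpl5, Rpl13 and Rps6, 3 of 28) and chromatin regulators (Kdm2b, 1 of 25) carried few. The 3 ribosomal protein genes rose in cKO IR vs WT IR, as did 27 of the 28 on the list, with 0.57, 0.36 and 0.44 on the log2 scale. Ribosomal protein genes have many near-identical copies that may share reads. Kdm2b, a histone demethylase, was lower, as were 24 of the 25 chromatin regulators.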

How the data were processed

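The study's methods state that reads were trimmed with Trimmomatic 0.39, aligned to mm10 with strand-specific HISAT settings against GENCODE vM19, and counted per gene. The deposited gene values are the authors' raw counts per library. Per library and strand the authors called peaks with MACS2 at q under 0.01. The deposited lists give each peak's fold over a control library as a ratio, −log10 p-value, −log10 q-value and a score that MACS2 derives from −log10 q. Which Input was the control of which IP library is not given in the sources used here. Summary lines that name no gene made up 8.66 to 12.4% of a table's counts and were left out.

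Peaks of the 3 replicates of a group were joined where they shared at least 1 base on the same strand (24 chains in WT Ctrl with no base common to all 3 were dropped), and the summit was taken from the replicate with the largest fold. Fold and q-value were used to describe peaks and, in alternatives, to filter them. Stop codons came from GENCODE vM21 on GRCm38, so some transcripts differ from the authors' vM19. Sequences were read from the RefSeq GRCm38.p6 genome with pysam 0.24.0. Counts were tested with edgeR 4.0.16 (R 4.3.3), quasi-likelihood F test, TMM, after removing genes that did not reach 10 counts in 3 or more libraries, without covariates, with all 12 Inputs (16090 genes) or all 24 libraries (17373 genes) in a fit, and Benjamini-Hochberg adjusted p under 0.05 over all genes. Shares per library were compared with exact two-sided permutation tests (scipy 1.17.1). The scripts were tested on simulated data. DESeq2 1.42.0, size factors, count filters, fold, q-value, overlap and distance limits and leaving out each library were the alternatives. Intervals of shares cover counting error only.

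Same-numbered Input libraries of different groups deviated together with correlations of -0.04 to 0.02, so numbers were not taken as pairs. The members, gene lists and tests were chosen with earlier results of these data known. Named peaks were the 10 with the largest lowest fold, the 10 largest with no peak in the other 9 libraries, and those of genes on 14 lists. Named genes were, per Input contrast other than the interaction, the 8 largest rises and falls among called member genes whose groups do not overlap in CPM. For the interaction the 8 largest in each direction among called member genes were taken without a rule on overlap. List genes with a stop codon peak were named too. Genes without counts were not analysed here. Some items that met these rules are not reported here.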

Additional observations from a re-analysis of the deposited data

Results flagged for a closer look

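The change with irradiation differed between cKO and WT Inputs, by the edgeR interaction test, for 719 genes with a stop codon peak in the upward direction and 253 in the downward direction. The erythroid markers high in WT IR Inputs move with this difference and their part in it was not tested. Each gene named here stood out by that test, with a Benjamini-Hochberg adjusted p under 0.05. They were taken by the size of the difference, without a rule on overlap between groups. On the log2 scale the largest upward differences were 2.02 for Ccl7, 1.94 for 2010005H15Rik, 1.83 for Ffar2 and 1.64 for Tmem40. Next came 1.58 for G0s2, 1.51 for Rgcc, 1.32 for Hist1h2af and 1.26 for Upp1. Input counts of 2010005H15Rik were low and overlapped in WT, with 0.903, 0.706 and 0.642 CPM in WT Ctrl and 0.716, 0.271 and 0.395 in WT IR. The largest downward ones were -0.88 for Lilrb4a, -0.75 for Zc3h11a, -0.73 for Zfp518b, -0.57 for Mrc1, -0.57 for Zhx3, -0.57 for Rai1, -0.56 for Zfp810 and -0.56 for Cep250. Hist1h2af and Lilrb4a have near-identical relatives that may share their reads. The Zfp810 call (edgeR adjusted p = 0.029) was lost without WT Ctrl Input replicate 3 (0.072), WT IR replicate 2 (0.0868), cKO Ctrl replicate 2 (0.0742) or cKO IR replicate 3 (0.0722), and without the count filter (0.0774).

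Tmem40, an epithelial-type membrane protein, also differed in the folds of its stop codon peak, with 2.49, 3.25 and 2.56 in WT Ctrl, 5.59, 8.91 and 5.65 in cKO Ctrl, 12.1, 12.8 and 11.4 in the libraries labelled WT IR and 6.28, 6.55 and 7.18 in those labelled cKO IR. WT Ctrl was the lowest group and the libraries labelled WT IR the highest. Zfp518b, a zinc finger gene, had 5.99, 5.02 and 4.31 in WT Ctrl and was without a peak in the 3 libraries labelled WT IR.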

How the results depend on the processing

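No difference of shares per library and no log2 change of a named gene changed sign under any alternative run. Of the alternatives to the comparisons that did not leave out a library, 136 values counted as unchanged, 9 moved, 2 became stronger and 4 weaker. Counts and call shares were unchanged within 1.5-fold of the main value, and presence shares within the SD of the main shares per library. The motif share was unchanged inside its interval. Differences of shares per library had to keep their sign and, for own peak lists, their side of the threshold. A distance limit of 100 bases left 1289 members and a limit of 4-fold in all replicates 494. A consensus peak in cKO IR was then found for 53.4% of members within 100 bases and for 57.8% within 400 bases. At 4-fold the shares were 67.6% in cKO IR, 73.5% in WT IR and 88.3% in cKO Ctrl, and with −log10 q of at least 10 they were 49.4% in cKO IR, 61.9% in WT IR and 77.7% in cKO Ctrl. In cKO Ctrl vs WT Ctrl, 20.9% of member genes were higher (464 genes) and 10% lower (222) with only the libraries of that contrast (all genes 12.99 and 12.4%). Of member genes at 4-fold, 8.89% (40 genes) were lower in cKO IR vs WT IR and 6% (27) below 0 in the interaction. In cKO IR vs cKO Ctrl the balance of calls was the other way at 4-fold, with 21.6% (97 genes) higher and 33.6% (151) lower. Among all member genes these shares were 32.0 and 29.97%, and over all genes 21.8 and 23.8%. GGACT was in 26.0% of windows reaching 100 bases to either side. For single named genes 1650 values stayed on their side of the threshold and 27 lost the call. In cKO IR vs WT IR the calls of Plk1, Tnfaip3, Bhlhe40, Jun and Cdc20 were also lost with only the libraries of that contrast (adjusted p = 0.109, 0.143, 0.103, 0.12 and 0.0508).

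Without 1 library at a time, the number of members was 2730 to 2753, their share with a consensus peak 52.6 to 61.3% in cKO IR, 63.6 to 74.2% in WT IR and 76.0 to 85.9% in cKO Ctrl, and the difference of shares per library -10.2 to -7.54 points for WT IR minus cKO Ctrl, -22.1 to -20.3 for cKO IR minus cKO Ctrl and -13.7 to -11.1 for cKO IR minus WT IR. The IR minus Ctrl difference in each library's own share was -1.53 to -1.30. Member genes higher and lower were 7.11 to 12.2% and 26.9 to 38.3% in WT IR vs WT Ctrl, 28.9 to 29.7% and 26.7 to 27.4% in cKO IR vs cKO Ctrl, 9.10 to 10.4% and 4.59 to 4.91% in cKO Ctrl vs WT Ctrl, 44.8 to 50.4% and 13.4 to 15.9% in cKO IR vs WT IR. In the interaction they were 28.6 to 36.8% and 9.36 to 13.3%. Over all genes these shares were, in the same order, 12.04 to 17.6% and 14.1 to 20.5%, 19.4 to 19.98% and 21.6 to 22.2%, 5.91 to 6.38% and 5.54 to 5.97%, 21.8 to 24.8% and 21.6 to 24.4%, and 13.2 to 17.1% and 13.5 to 17.6%. IP over Input was called for 88.3 to 89.2% in cKO Ctrl, 87.2 to 88.2% in WT IR and 82.4 to 82.8% in cKO IR. By the limits given above, 122 values of the comparisons were unchanged, 18 moved and 1 became weaker. Of single genes, 1951 values stayed on their side and 107 lost the call.

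With the replicate number as a block, member genes higher and lower were 8.82 and 30.9% in WT IR vs WT Ctrl, 31.5 and 29.1% in cKO IR vs cKO Ctrl, 12.3 and 5.58% in cKO Ctrl vs WT Ctrl, 47.9 and 14.2% in cKO IR vs WT IR. In the interaction they were 31.4 and 10.3%, and 89.5, 87.9 and 83.4% were called for IP over Input in cKO Ctrl, WT IR and cKO IR. Over all genes the block gave, for the 5 contrasts in that order, 14.1 and 16.3%, 21.3 and 23.3%, 7.33 and 6.86%, 23.4 and 23.1%, and 14.4 and 14.4%. The pairing has no support in the labels, and same-numbered Inputs did not deviate together (correlations of -0.04 to 0.02). The permutation tests of 3 against 3 libraries cannot pass 0.05. Peak folds of genes with few Input reads, such as Car4, are limited by that depth.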
